A study of Mus musculus with 16 samples.

Results

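The vascular bed of the liver was examined through 10 endothelial genes, measured on 16 arrays of mouse liver RNA on which 24357 genes could be tested. The genes were chosen by name, as 6 that mark the sinusoidal endothelium (Stab1, Stab2, Lyve1, Clec4g, Fcgr2b and Gata4) and 4 that mark continuous or capillary-type endothelium (Cd34, Pecam1, Vwf and Plvap). For each gene the probe with the highest mean signal was taken, and all 10 were well above background on all 16 arrays. Livers came from male mice of the inbred BALB/c strain, 6 to 8 weeks of age when dosing began, that were either wild type (WT) or lacked Lcn2, the gene of the secreted protein lipocalin 2 (Lcn2-/-). The knockout allele was made on a mixed C57BL/6 and 129-derived background, then bred onto BALB/c by repeated backcrossing. CCl4, a solvent that hepatocytes turn into a toxic radical, was given in corn oil at 0.5 ml/kg, 2 times per week for 4 weeks, and the mice were killed 48 h after the final injection. Control mice received corn oil. The arrays numbered 4 for WT controls and 5 for WT mice given CCl4, and 3 and 4 for the corresponding Lcn2-/- groups. The comparisons ask how repeated injury changes these genes and whether the loss of Lcn2 alters their level or their response.

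Sinusoidal endothelial cells line the blood channels of the liver lobule. They are perforated, lack an organised basement membrane and take up waste molecules from the blood through scavenger receptors such as the stabilins. In chronic injury these cells can lose their pores, gain a basement membrane and take on surface markers of ordinary capillaries, a change called capillarization. GATA4 is a transcription factor known to hold the sinusoidal identity. Whole liver was measured here, so that fewer cells of a type and less RNA per cell cannot be told apart.

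The share of spots well above background was 51.6% to 60.9% per array, with 0 spots saturated. As a check of the labels, the Lcn2 signal of every Lcn2-/- array, 10.47 to 12.25, lay below that of every WT array, 13.79 to 17.57. All signals are log2 of the normalized brightness of a probe, so levels are not compared between genes. All control arrays lay on slide 1, together with WT CCl4 array 1, and the other CCl4 arrays lay on slide 2, so that treatment and slide were largely the same split. On both slides the WT arrays were in the upper row of arrays and the Lcn2-/- arrays in the lower row, except WT CCl4 array 1 in the lower row of slide 1. Position and genotype therefore cannot be told apart among the controls or within slide 2. The third array of the WT controls and the third of the Lcn2-/- controls stood apart from their groups in some genes. Both lay in column 3 of slide 1. CCl4 responses of the members that passed the test, and of most gene lists, are given with and without them. Genotype differences of the lists are given only with them.

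Promoter windows from RefSeq (GRCm38.p6), 250 bases before to 50 bases after the start, were available here for 5 of the members. Those of the continuous member that changed most and of the sinusoidal member that fell are shown with their strand as written 5' to 3'. Lyve1, Gata4, Pecam1, Vwf and Plvap have no window in the table used. Capitals mark matches, on either strand, to the GATA spellings AGATAA with its variant AGATAG and TGATAA with its variant TGATAG, and to the ETS spellings AGGAAG plus the variant CGGAAG. These names stand for families of transcription factors that act in endothelium. The Cd34 window is chr1:194938571-194938870 on the plus strand and the Stab2 window is chr10:87007893-87008192 on the minus strand.
Cd34: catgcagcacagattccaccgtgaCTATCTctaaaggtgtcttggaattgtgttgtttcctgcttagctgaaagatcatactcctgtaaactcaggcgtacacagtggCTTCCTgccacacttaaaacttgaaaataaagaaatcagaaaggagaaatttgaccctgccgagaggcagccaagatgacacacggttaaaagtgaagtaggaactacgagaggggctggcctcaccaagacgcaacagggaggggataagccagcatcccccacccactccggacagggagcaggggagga
Stab2: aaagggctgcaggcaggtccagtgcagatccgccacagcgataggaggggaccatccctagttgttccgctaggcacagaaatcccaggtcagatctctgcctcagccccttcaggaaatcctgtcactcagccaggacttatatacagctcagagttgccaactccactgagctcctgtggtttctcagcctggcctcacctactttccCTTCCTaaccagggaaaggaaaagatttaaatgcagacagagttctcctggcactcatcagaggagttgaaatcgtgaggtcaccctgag

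The Cd34 window held 1 GATA match and 1 ETS match, and the Stab2 window held 0 GATA matches and 1 ETS match. The windows of Stab1, Clec4g and Fcgr2b held 0, 1 and 1 GATA matches and 2, 3 and 0 ETS matches. Of 32841 promoter windows of the same length, 29.8% held a GATA match and 46.5% an ETS match. These matches describe the letters of the windows and carry no information on binding in these livers.

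**Figure D1:**
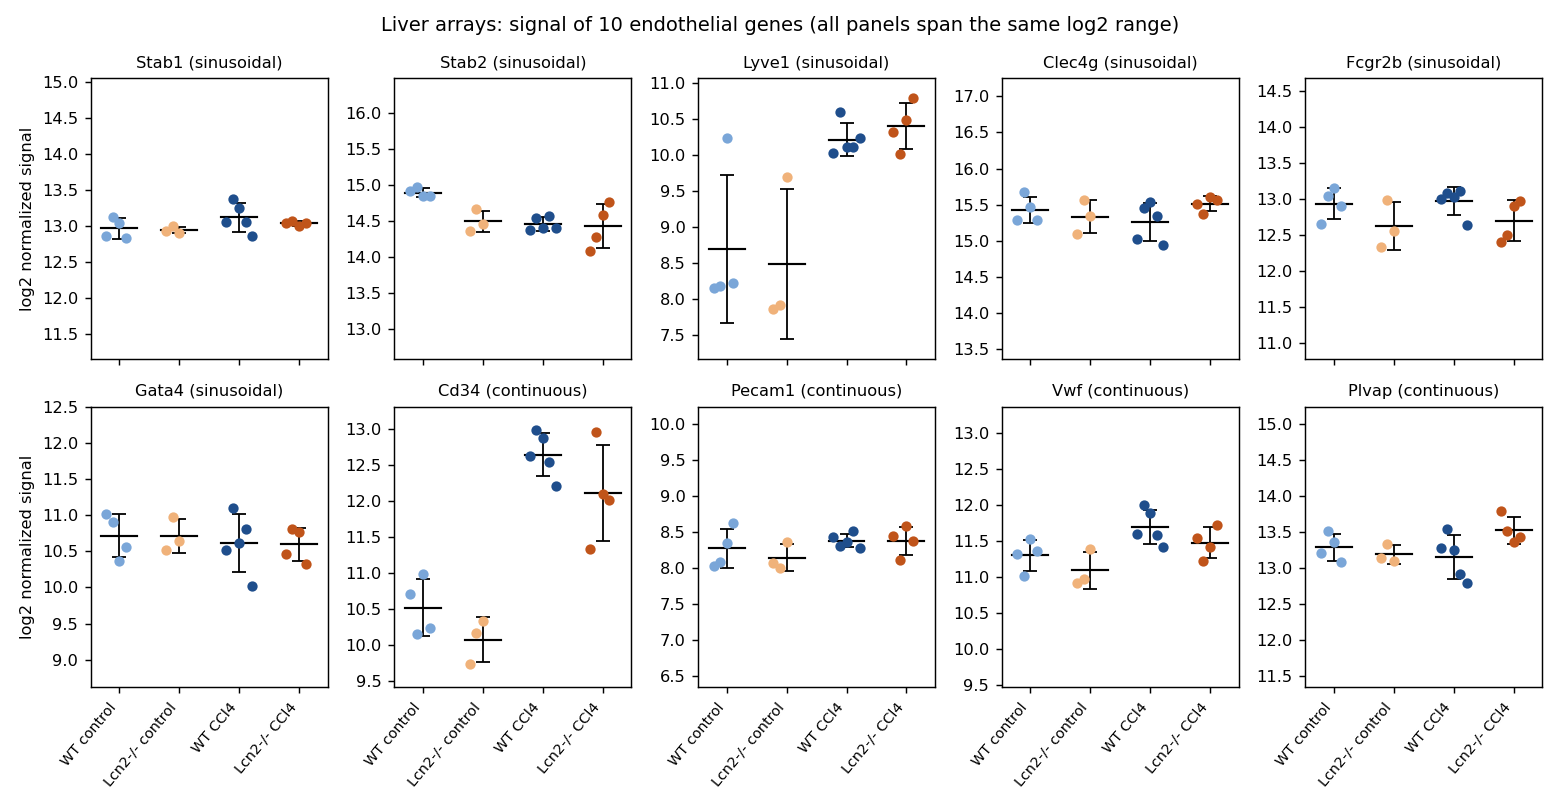
Log2 normalized signal (vertical axis) of 6 sinusoidal and 4 continuous genes on each of 16 arrays, 1 point per array, with the group mean and SD as bars, in panels that all span the same log2 range. Cd34 is separated between control and CCl4 arrays in both genotypes. Lyve1 is separated in Lcn2-/- and, but for 1 WT control array that lies among the CCl4 arrays, in WT. Stab2 is separated in WT and Plvap in Lcn2-/-, both by small differences on this scale, and the other panels change little.

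CD34, a sialomucin of the surface of capillary endothelium and of blood progenitors, showed the clearest change of the 10 genes. Its signal was 10.70, 10.15, 10.99 and 10.23 on the 4 WT control arrays and 12.62, 12.98, 12.87, 12.54 and 12.20 on the 5 WT CCl4 arrays. It was 9.73, 10.16 and 10.33 on the 3 Lcn2-/- control arrays and 11.33, 12.96, 12.10 and 12.02 on the 4 Lcn2-/- CCl4 arrays. All CCl4 arrays lay above all control arrays in both genotypes. Cd34 rose 4.36-fold in WT, by 2.13 ± 0.281 (SE) on the log2 scale, with an adjusted p of 0.000151 from limma. In Lcn2-/- livers it rose 4.08-fold, by 2.03 ± 0.320 (SE), with an adjusted p of 0.001. A dimmer probe of Cd34 (chromosome 1, 196785280 to 196785339, mm9) was not well above background on any control array, but was on all 5 WT CCl4 and on 2 of 4 Lcn2-/- CCl4 arrays. By that probe Cd34 was at least 1.95-fold higher in WT CCl4 than in WT control, and in Lcn2-/- the same bound gave no fold. This probe passed the filter on dim probes only through the CCl4 arrays, so its difference is a description and no separate evidence of the rise.

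The main Cd34 probe (chromosome 1, 196787392 to 196787451, mm9) lies in the first row of the array's spots. Over 37 replicated spots of like brightness in the first 8 rows, the median difference from spots of the same probes further down lay between -0.037 and 0.0072 on the 16 arrays. With slide as a block in the model, the Cd34 response was 2.10 in WT (adjusted p 0.0254) and 2.00 in Lcn2-/- (adjusted p 0.109). All slide-block responses rest on WT CCl4 array 1, the single CCl4 array that shares a slide with controls. It lay in the lower row of that slide and the WT controls in the upper row, so row and treatment cannot be told apart there in WT. In WT the estimate is that array minus the control mean, the same comparison as within slide 1 alone, where the array is assumed to vary like the controls (adjusted p 0.0389). Without the third array of both control groups, Cd34 rose by 2.28 in WT (adjusted p 0.000177) and by 2.15 in Lcn2-/- (adjusted p 0.00167). Over the 16 fits that each left out 1 array, the response lay between 2.00 and 2.28 in WT and between 1.74 and 2.28 in Lcn2-/-, with adjusted p under 0.05 in every one.

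Lyve1 (chromosome 7, 117994171 to 117994230, mm9), a hyaluronan receptor of sinusoidal and lymphatic endothelium that some macrophages also carry, was higher after CCl4 in both genotypes. In WT controls it read 8.16, 8.18, 10.24 and 8.22, and on the WT CCl4 arrays 10.03, 10.59, 10.11, 10.12 and 10.24. In Lcn2-/- controls it read 7.86, 7.91 and 9.69, and on the Lcn2-/- CCl4 arrays 10.32, 10.02, 10.49 and 10.79. The third WT control array lay inside the range of the CCl4 arrays, so the WT groups overlapped, while the Lcn2-/- groups did not. Lyve1 rose by 1.52 ± 0.436 (SE) in WT, 2.86-fold, with an adjusted p of 0.028, and by 1.92 ± 0.497 in Lcn2-/-, 3.77-fold, with an adjusted p of 0.0211. Without the third array of both control groups, the rise was 2.03 in WT (adjusted p 7.43e-06) and 2.52 in Lcn2-/- (adjusted p 1.6e-05). Leaving out single arrays ended the call in WT without control array 1, 2 or 4 or CCl4 array 2 (adjusted p 0.0634 to 0.0986), and in Lcn2-/- without control array 1 or 2 or CCl4 array 4 (0.0504 to 0.11).

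The same 2 control arrays also held the highest summed level of the Kupffer cell and macrophage list, 18.29 in the WT control and 18.32 in the Lcn2-/- control, against 16.63 to 17.17 on the other 14 arrays. That list had 8 genes, none of which was below background on every array of a group. The WT array of the pair also had the highest Lcn2 signal, 17.57. The part of these cells in the Lyve1 result was not tested. With slide as a block the Lyve1 response was 1.33 in WT (adjusted p 0.338) and 1.68 in Lcn2-/- (adjusted p 0.398), so the calls were lost. Within slide 1 it was 1.33 in WT (adjusted p 0.464).

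Stab2 (chromosome 10, 86303982 to 86304041, mm9), a scavenger receptor that clears hyaluronan from the blood, fell in WT. It was the sole sinusoidal member called lower. Its signal was 14.90, 14.97, 14.85 and 14.84 in WT controls and 14.36, 14.54, 14.40, 14.57 and 14.39 in WT CCl4. It was 14.36, 14.65 and 14.45 in Lcn2-/- controls and 14.08, 14.27, 14.58 and 14.76 in Lcn2-/- CCl4. The 4 WT controls lay above the 12 other arrays. In WT, Stab2 fell by 0.43 ± 0.127 (SE) on the log2 scale, a 1.35-fold decrease with an adjusted p of 0.0301. In Lcn2-/- livers the difference was -0.07 ± 0.144 (SE), with a 95% interval from -0.38 to 0.24 and an adjusted p of 0.807. The difference between these responses was 0.37 with a 95% interval from -0.04 to 0.78, and was not past the threshold (adjusted p 1). With slide as a block the WT difference was -0.53 (adjusted p 0.188) and within slide 1 it was -0.53 (adjusted p 0.125), and neither passed. Without WT control array 1, 2 or 4, or WT CCl4 array 1, 3 or 5, the WT difference lay between -0.45 and -0.41 and missed the threshold (adjusted p 0.0517 to 0.0876). Without the third array of both control groups it was -0.45 (adjusted p 0.0463).

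The other sinusoidal genes did not pass the test in either genotype. Stab1, a scavenger receptor related to Stab2, spanned 12.83 to 13.37 over the 16 arrays, with differences of 0.15 ± 0.107 (SE) in WT and 0.09 ± 0.122 in Lcn2-/-. Clec4g, a lectin of sinusoidal endothelium, spanned 14.94 to 15.67, with differences of -0.17 and 0.18. Fcgr2b, an inhibitory receptor for immune complexes that B cells also express, spanned 12.33 to 13.15, with differences of 0.04 and 0.07. Gata4 spanned 10.02 to 11.10, with differences of -0.10 and -0.12. The widest of the 95% intervals of these differences reached from -0.61 to 0.38, for Gata4 in Lcn2-/-.

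Of the other continuous markers, Vwf, the adhesive protein that carries clotting factor VIII, read 11.31, 11.01, 11.52 and 11.36 in WT controls and 11.59, 11.99, 11.89, 11.58 and 11.41 in WT CCl4. The WT groups overlapped by 1 control array and 1 CCl4 array, with a difference of 0.39 ± 0.157 (SE) and an adjusted p of 0.102. In Lcn2-/- it was 0.39 ± 0.178 (adjusted p 0.181). Plvap, the protein of the diaphragm that closes endothelial pores, differed by -0.13 ± 0.154 in WT (adjusted p 0.598) and by 0.33 ± 0.175 in Lcn2-/- (adjusted p 0.243). Its Lcn2-/- groups did not overlap, with controls at 13.10 to 13.34 and CCl4 arrays at 13.37 to 13.79. A dimmer probe of Plvap gave -0.04 in WT (adjusted p 0.939) and 0.27 in Lcn2-/- (adjusted p 0.557). Pecam1, an adhesion molecule of all endothelium, spanned 8.01 to 8.63 and differed by 0.11 ± 0.136 in WT and by 0.23 ± 0.155 in Lcn2-/-.

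**Figure D2:**
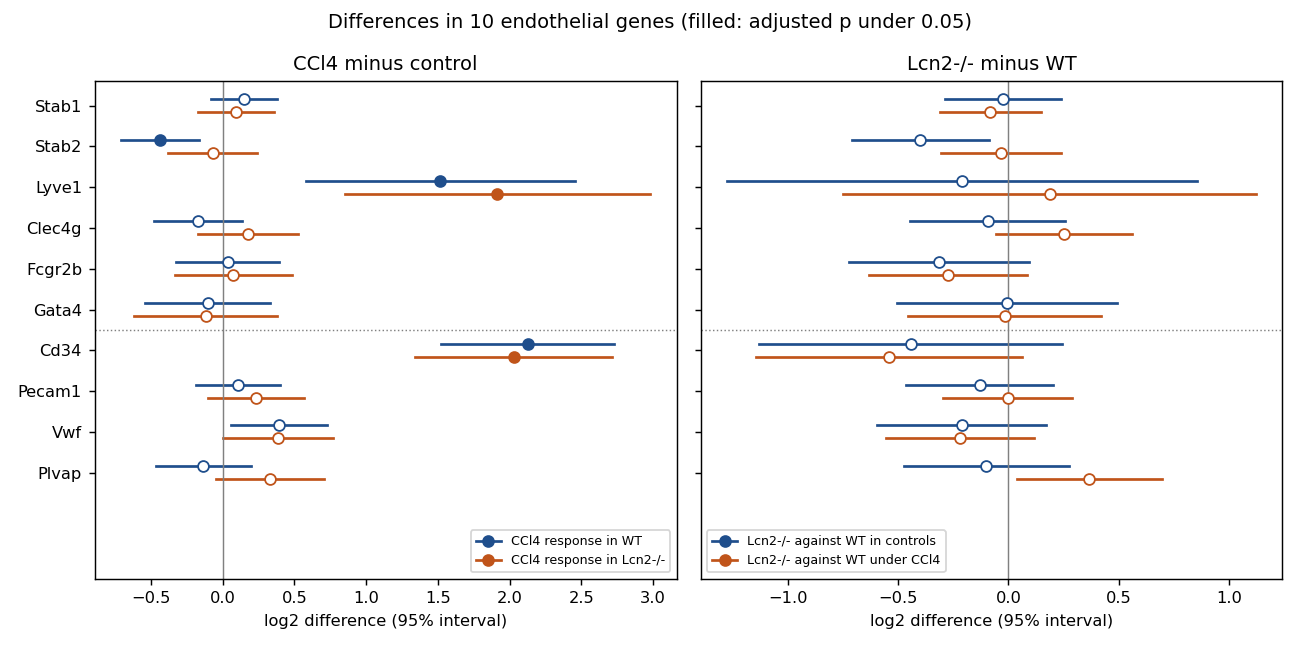
Log2 difference (horizontal axis) with its 95% interval from limma for 10 genes, CCl4 minus control on the left and Lcn2-/- minus WT on the right, with filled points for an adjusted p under 0.05. Cd34 and Lyve1 are filled in both responses and Stab2 in the WT response, and no point is filled on the right.

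In the WT response 3 of 10 members passed the test, Cd34 and Lyve1 higher and Stab2 lower, where 16.8% of all genes tested did so, 8.01% higher and 8.8% lower. In the Lcn2-/- response 2 of 10 passed, Cd34 and Lyve1, both higher, where 12.2% of all genes did so, 6.57% higher and 5.61% lower. An unadjusted p under 0.05 was found for 4 of 10 members in WT (background 30.7%) and for 3 of 10 in Lcn2-/- (background 27%), Vwf being the added gene in both. The groups did not overlap for 2 of 10 members in WT (background 17.4%) and for 3 of 10 in Lcn2-/- (background 24.8%). The median difference of the 6 sinusoidal genes was -0.03 in WT and 0.08 in Lcn2-/-, beside medians over all genes of -0.03 and -0.02. The WT value changed sign, to 0.07 with array weights and 0.08 with the replicate block, and the Lcn2-/- value to -0.05 with slide as a block. Leaving out 1 array gave -0.11 to 0.08 in WT, positive without WT control array 2 or WT CCl4 array 5, and -0.0068 to 0.19 in Lcn2-/-, negative without Lcn2-/- control array 1. The median of the 4 continuous genes was 0.25 in WT and 0.36 in Lcn2-/-, and without Cd34 it was 0.11 and 0.33. Cd34 was thus the single continuous gene that passed the test, and the sinusoidal set held 1 gene that rose in both genotypes and 1 that fell in WT.

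Within each array, the mean of the continuous genes was set against the mean of the sinusoidal genes, both as log2 deviations from the WT control mean. The continuous mean was 0.62 ± 0.204 (SD, n = 5) in WT CCl4 and 0.52 ± 0.0712 (SD, n = 4) in Lcn2-/- CCl4. The sinusoidal mean was 0.17 ± 0.192 in WT CCl4 and 0.17 ± 0.145 in Lcn2-/- CCl4. Sinusoidal minus continuous lay between -0.57 and -0.31 in WT CCl4 and between -0.54 and -0.23 in Lcn2-/- CCl4, below the range of the controls of both genotypes, -0.14 to 0.20. With Lyve1 kept among the sinusoidal genes, the gap rests on Cd34. Without Cd34, the mean of the other 3 continuous genes was 0.12 ± 0.171 (SD) in WT CCl4 and 0.17 ± 0.132 in Lcn2-/- CCl4. Sinusoidal minus continuous was then -0.09 to 0.18 in WT CCl4 and -0.27 to 0.12 in Lcn2-/- CCl4, overlapping the controls at -0.23 to 0.13. The sinusoidal mean is itself raised by Lyve1, which averaged 8.70 in WT control, 10.22 in WT CCl4 and 10.40 in Lcn2-/- CCl4. The gap without both Cd34 and Lyve1 was not computed. All these means are descriptions of the chosen genes and have no test.

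**Figure D3:**
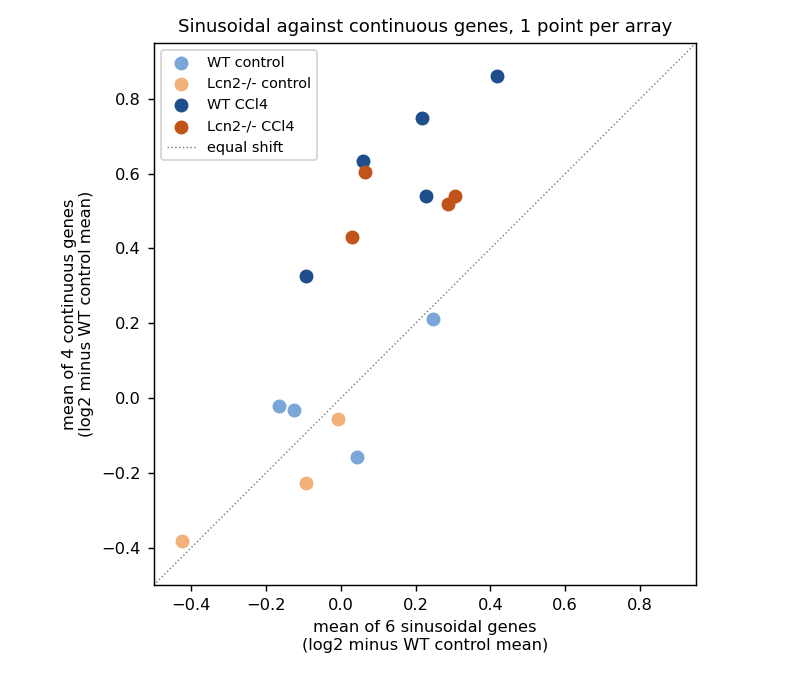
Mean log2 deviation from the WT control mean of 4 continuous genes (vertical axis) against that of 6 sinusoidal genes (horizontal axis), 1 point per array, with a dotted line of equal shift. All 9 CCl4 arrays lie above the line by at least 0.23, and the 7 control arrays lie within 0.20 of it. With Lyve1 kept in the sinusoidal mean, Cd34 produces this distance, since without Cd34 the CCl4 arrays lie on both sides of equal shift.

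No member passed the test between genotypes. Under CCl4, 0 of 10 passed the limma test (background 0.636%), with 1 at an unadjusted p under 0.05 against a background of 13.7% (Plvap, 0.37 ± 0.154, adjusted p 0.322), and 0 had groups that did not overlap (background 5.66%). The Cd34 difference, Lcn2-/- CCl4 minus WT CCl4, was -0.54 ± 0.281 (SE), with an adjusted p of 0.42. It was -0.83 without Lcn2-/- CCl4 array 2 and -0.28 without Lcn2-/- CCl4 array 1, the lowest and highest values on leaving out 1 array. In controls 0 of 10 passed (background 0.53%), with 1 at an unadjusted p under 0.05 (background 8.3%). That gene was Stab2, at -0.40 ± 0.144 with an adjusted p of 0.381, and it was the single member whose control groups did not overlap (background 9.64%). With arrays weighted by quality, Stab2 in controls passed the test (adjusted p 0.0226), whereas over all genes the share called rose from 0.53% to 5.21%. For the interaction, 0 of 10 passed in limma (background 0.0534%) and 0 had an unadjusted p under 0.05 (background 3.33%). The 95% interval of the interaction was -1.01 to 0.82 for Cd34 and -1.02 to 1.81 for Lyve1.

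Among the arrays of a group, some pairs of members varied together and others did not. After the group means were taken out, the highest r over 16 arrays was 0.844, between Stab1 and Plvap. Next were 0.759 between Stab1 and Clec4g, 0.75 between Stab2 and Fcgr2b and 0.707 between Clec4g and Fcgr2b. The lowest were -0.314 between Lyve1 and Gata4 and -0.302 between Pecam1 and Plvap, and Stab1 and Stab2 had 0.16. The spread of r over all pairs of genes was not computed. These are descriptions over arrays that share slides and scaling. Over all 16 arrays, the genes whose signal was most like that of Cd34 were B3gnt9 (r = 0.981), Ak1 (r = 0.981) and Fzd2 (r = 0.98), and those most like Lyve1 were Gm8013 (r = 0.977), Clec7a (r = 0.973) and Ereg (r = 0.971). For Stab1 they were Polk, Bax and Dennd5a (r = 0.878 to 0.913), for Clec4g B230214O09Rik, Apbb2 and Ehd3 (r = 0.846 to 0.88), and for Fcgr2b Cav2, Inhba and Ankrd44 (r = 0.785 to 0.798). For Gata4 they were Acvr1, Kdm5b and F830014O18Rik (r = 0.813 to 0.858), for Vwf Pglyrp1, Epha3 and C030046G05 (r = 0.888 to 0.905), and for Plvap Cct7, Gm9312 and Atp6v0d1 (r = 0.818 to 0.86). Clec14a (r = 0.877), a surface protein of endothelium, was among those most like Pecam1.

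Other genes of the same biology were read from the same model, and their counts are set against the 8.01% of all genes called higher and 8.8% called lower in WT, and the 6.57% and 5.61% in Lcn2-/-. Of 13 other sinusoidal genes, 1 was lower in WT and 0 passed in Lcn2-/-. It was Dnase1l3, a secreted DNase, at 11.51 ± 0.0529 (SD, n = 4) in WT control and 11.06 ± 0.118 (n = 5) in WT CCl4 (-0.46 ± 0.127, adjusted p 0.0247). Of 12 other capillary genes tested, 3 rose and 1 fell in WT and 3 rose in Lcn2-/-. Esm1, an endothelial proteoglycan of sprouting vessels, rose by 3.34 ± 0.461 in WT (adjusted p 0.000209) and by 2.69 ± 0.525 in Lcn2-/- (adjusted p 0.00392), although its probe was above background on 2 of 3 Lcn2-/- control arrays. Pdgfb, a growth factor that recruits pericytes, rose by 1.44 and 1.55 (adjusted p 0.000371 and 0.000945), and Fabp4, a fatty acid binding protein of capillaries, by 0.97 and 1.24 (adjusted p 0.00053 and 0.000379). Selp, an adhesion molecule for leukocytes, fell by 0.72 in WT (adjusted p 0.00479) and was -0.39 in Lcn2-/- (adjusted p 0.159).

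Of 19 genes shared by all endothelium, 3 rose in WT, and 3 rose and 1 fell in Lcn2-/-. Cd93, a C-type lectin-like receptor, rose by 1.06 and 1.46 (adjusted p 0.0168 and 0.00718), Ramp2, part of the adrenomedullin receptor, by 0.49 and 0.65, and Sox17, a transcription factor, by 0.40 and 0.69. Flt1, a VEGF receptor, fell by 0.43 in Lcn2-/- (adjusted p 0.0151) and was -0.21 in WT (adjusted p 0.134). Of 16 angiocrine and vasoactive genes, 5 rose in WT and 3 in Lcn2-/-. Cxcr4, a chemokine receptor above background on 3 of 4 WT control arrays, rose by 1.99 in WT (adjusted p 0.0236). It was 1.54 in Lcn2-/- (adjusted p 0.129). Angpt2, a ligand of the Tie2 receptor, rose by 1.30 in WT (adjusted p 0.0114) and was 0.67 in Lcn2-/- (adjusted p 0.246). With slide as a block the Angpt2 difference was 0.45 in WT and -0.40 in Lcn2-/-, and neither passed. Ackr3, a chemokine scavenging receptor, rose by 1.63 and 2.30 (adjusted p 0.0015 and 0.000522). Edn1, the precursor of the vasoconstrictor endothelin-1, rose by 1.11 in WT (adjusted p 0.00207), and since it was not well above background on any Lcn2-/- control array, it was at least 1.33-fold higher in Lcn2-/- CCl4 (adjusted p 0.0033). With slide as a block Edn1 lost its call in both genotypes, with a difference of 0.88 in WT. The Edn1 signal was 5.61 ± 0.428 (SD, n = 4) in WT control, with 3 of 4 arrays above background, and 6.71 ± 0.208 (n = 5) in WT CCl4, against 5.93 ± 0.402 (n = 4) in Lcn2-/- CCl4. Edn1 read lower in Lcn2-/- than in WT under CCl4 (-0.78 ± 0.207 SE, adjusted p 0.122), and in controls WT was at least 1.06-fold higher (adjusted p 0.127). Under CCl4 the genotypes did not overlap, but only narrowly, with the highest Lcn2-/- array at 6.477 and the lowest WT array at 6.482. In controls they did not overlap either, but there the Lcn2-/- values were not well above background. Neither comparison passed the test. Fgfr1, a growth factor receptor, rose by 0.94 and 0.99 (adjusted p 0.0203 and 0.0376). Under CCl4 it read 11.02 to 11.64 in WT and 11.97 to 12.31 in Lcn2-/-, a difference of 0.82 in the other direction from Edn1 (adjusted p 0.184). These were the 2 of 16 angiocrine genes without overlap under CCl4 (background 5.66%), and 1 of 16 had none in controls (background 9.64%).

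Of 9 basement membrane genes, 6 rose in WT and 7 in Lcn2-/-, with medians of 0.54 and 0.90. Col4a1, a chain of type IV collagen, rose by 1.21 and 1.81 (adjusted p 0.00308 and 0.000681), its partner chain Col4a2 by 0.84 and 1.39 (adjusted p 0.0463 and 0.00896), and Lamb1, a laminin chain, by 1.15 and 1.36 (adjusted p 4.11e-05 and 4.99e-05). Nid1, which links laminin to collagen IV, rose by 1.04 and 1.29 (adjusted p 0.00161 and 0.00143). These genes are also made by stellate cells and fibroblasts, whose list of 9 had 8 genes higher in WT and 7 in Lcn2-/-. The summed level of that list was 16.62 to 17.49 in the controls of both genotypes and 17.72 to 18.83 under CCl4, with Col1a1 up by 3.49 and 4.21, Col1a2 by 2.89 and 2.98 and Lum by 2.78 and 2.53. With slide as a block, a fit that called 5.35% of all genes in WT and 1.74% in Lcn2-/-, 3 and 2 basement membrane genes and 6 and 3 stellate genes passed, while 0 genes of all endothelium passed in either genotype. Of the other capillary genes 0 were higher in either genotype and 1 was lower in WT, Selp (-1.07, adjusted p 0.0184). For the angiocrine list 1 and 1 rose, and for the other sinusoidal list 0 and 0 passed. Dnase1l3 was -0.64 in WT in that fit (adjusted p 0.0992), a larger difference that missed the threshold. The median difference was 0.50 and 0.55 for the angiocrine list, against 0.36 and 0.42 without the block, and 1.44 and 1.67 for the stellate list, against 1.06 and 1.16. It was 0.68 and 1.04 for the basement membrane list. For the other capillary list it was 0.48 and 0.73, against 0.45 and 0.64 without the block. Of the genes of all endothelium that lost their calls, Ramp2 was 0.49 in WT and 0.66 in Lcn2-/- with the block. Cd93 was then 0.74 and 1.06, Sox17 was 0.29 and 0.55, and Flt1 was -0.47 in Lcn2-/-. Without the third array of both control groups, where 22.4% of all genes were called in WT and 15.1% in Lcn2-/-, 7 and 4 angiocrine, 4 and 4 other capillary, 5 and 6 basement membrane and 8 and 6 stellate genes rose in WT and Lcn2-/-, and the counts of the other sinusoidal and pan-endothelial lists were as before. The part of stellate cells in the Cd34 and basement membrane results was not tested.

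Between genotypes, 0 genes of the basement membrane and stellate lists passed the limma test under CCl4, in controls or for the interaction. At an unadjusted p under 0.05 there were 4 basement membrane and 2 stellate genes in controls (background 8.3%), 0 and 2 under CCl4 (background 13.7%) and 0 and 0 for the interaction (background 3.33%). In controls 8 of 9 basement membrane genes read lower in Lcn2-/- than in WT, with a median difference of -0.43, and for 5 of them the groups did not overlap (background 9.64%). Of the stellate genes 8 of 9 read lower in Lcn2-/- controls, with a median of -0.40, and 3 did not overlap. The third WT control array had the highest summed stellate level of the controls, 17.49 against 16.62 to 16.96 on the other control arrays. It also had the highest basement membrane level, 14.83 against 14.19 to 14.56. Col1a1 spanned 11.07 to 13.98 on the WT control arrays (SD 1.25), so its control difference and interaction rest partly on the highest of them. The genotype differences of these lists are given with that array included. Under CCl4 the Lcn2-/- arrays still read lower in 6 of 9 basement membrane genes (median -0.16, 0 without overlap) and in 9 of 9 stellate genes (median -0.28, 1 without overlap, background 5.66%). Col1a1, a chain of type I collagen, was -1.71 in controls (adjusted p 0.229) and -0.99 under CCl4 (adjusted p 0.358), with an interaction of 0.72 (adjusted p 1). Col4a1 was -0.90 and -0.30 (adjusted p 0.233 and 0.615), with an interaction of 0.60 (adjusted p 1).

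Markers of other cells that share member genes were read as well. Of 5 lymphatic genes, Pdpn rose by 3.03 in WT (adjusted p 0.00123) and was 1.91 in Lcn2-/- (adjusted p 0.0522), and Reln rose by 0.87 and 1.19. Prox1, counted here as a lymphatic marker, was -0.35 and 0.04 (adjusted p 0.434 and 0.954). Ccl21a and Mmrn1 did not pass in either genotype. Which cells of the whole liver carried these 5 genes, Pdpn and Reln included, was not tested. The summed lymphatic level was 11.17 to 12.63 in controls and 12.23 to 13.66 under CCl4. Of 8 platelet genes 0 passed in either genotype, and of 6 B cell genes only Pax5 passed, lower in WT (adjusted p 0.0438), with a probe above background on 3 of 4 WT control and 1 of 5 WT CCl4 arrays. Of the macrophage list, Clec4f and Timd4, which mark resident Kupffer cells, fell in WT by 1.03 and 1.29 (adjusted p 0.00533 and 0.0291), and Cd68 rose by 2.12 and 1.84 (adjusted p 0.00673 and 0.0378). With slide as a block, where 5.35% and 1.74% of all genes were called, 0 macrophage genes passed in either genotype and 1 lymphatic gene rose in each. The macrophage list median in that fit was -0.83 in WT and -0.56 in Lcn2-/-. With the same block the B cell gene Pax5 was -0.98 in WT and lost its call, while Cd22 passed as lower in WT (-0.84). Without the third array of both control groups, where 22.4% and 15.1% of all genes were called, 2 macrophage genes rose and 3 fell in WT and 2 rose in Lcn2-/-, and the list median turned from -0.60 to 0.13 in WT and from -0.42 to 0.18 in Lcn2-/-. In the same fit 1 platelet gene rose in WT, 1 B cell gene rose in each genotype and 2 fell in WT, and 1 lymphatic gene rose in each genotype. None of 7 hepatocyte genes and none of 4 bile duct genes passed in either genotype. The part of lymphatic vessels in the Lyve1 result was not tested.

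**Figure D4:**
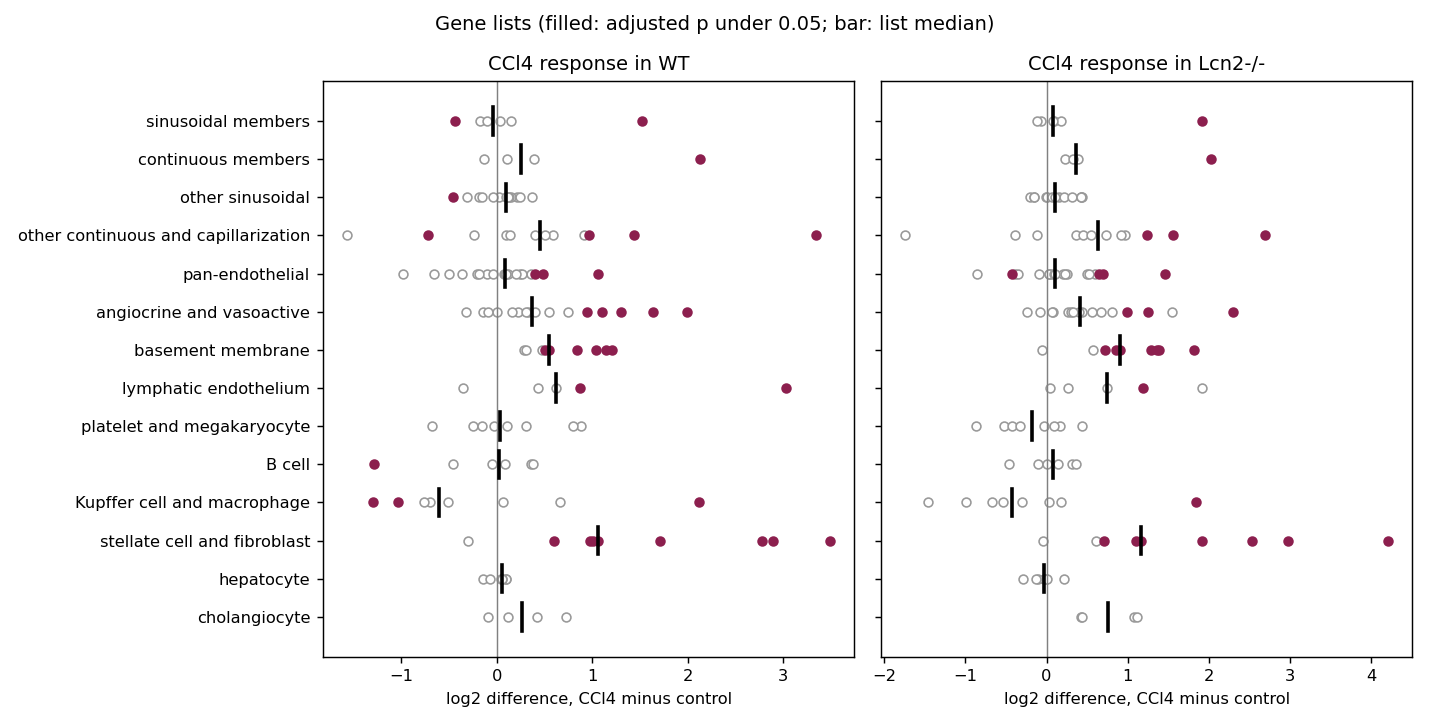
Log2 difference between CCl4 and control (horizontal axis) for the genes of 14 lists (rows), in WT on the left and Lcn2-/- on the right, 1 point per gene, filled for an adjusted p under 0.05, with the list median as a bar. The stellate cell and basement membrane lists have medians of 1.06 and 0.54 in WT, and the sinusoidal members have a median of -0.03.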

How the data were processed

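Mouse liver RNA was hybridised to 16 1-colour Agilent arrays, 1 per sample. The authors labelled it with Cy3 and ran the image software (Feature Extraction 10.7.3.1), and per the file headers each deposited file holds 1 array's spot intensity, not normalized between arrays. A deposited table of log2 values, whose making the table itself leaves unstated, matched quantile-normalized log2(median signal minus median local background) within 0.05 for 99.86% of its values, and served as an alternative. Without the 3671 control spots, 59305 gene spots remained, whose processed signals were taken to log2 and quantile normalized. Spots marked as outliers were then dropped, and spots of a probe averaged. A probe was tested if at least 3 arrays had it well above background (33014 probes), and the one with the highest mean was taken for each of 24357 genes.

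Groups came from sample titles. 1 model over the 4 groups was fitted with limma 3.58.1 in R 4.3.3, with Benjamini-Hochberg adjustment within each contrast over all genes and a threshold of 0.05. Nothing in the labels says that arrays of a group came from separate animals or extractions, so p-values measure the spread between these arrays. The model was tested on simulated data. The number of arrays limits the precision, and r between arrays of a group was 0.9736 to 0.9916. The members and lists were chosen with earlier results of these data known, so no test was made over a list. Named from the other lists are at most 3 genes past the threshold for each comparison with the largest change, and cell type markers. Same-numbered arrays of the 2 control groups deviated together (r = 0.233, 0.368 and 0.552), and no other pair of groups had every r over 0.1. Those control arrays also shared a column of slide 1, so number and column cannot be told apart for them. On slide 2, WT CCl4 and Lcn2-/- CCl4 arrays of the same column have different numbers, so the replicate block does not stand for column. Alternatives were the 75th percentile scaling, normexp background correction (offset 50), the authors' table, no filter, the mean of probes, array weights, slide and replicate number as blocks, each slide alone and leaving out each array. Leaving out 2 control arrays together, and Cd34 from its set (for the median and for the mean by array), were chosen after seeing the data. The hepatocyte gene Tf was not analysed here, nor were Cav1, Sele and Cd79a, which did not pass the filter. Positions are on mm9.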

Additional observations from a re-analysis of the deposited data

Results flagged for a closer look

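Of 30 groups of 4 or 5 arrays of a member gene, 2 held an array far from the rest of its group, where chance alone gives about 1 in 20. Lyve1 on the third WT control array was 10.24, against 8.22 for the nearest of the other 3. Fcgr2b on the fifth WT CCl4 array was 12.64, against 13.00 for the nearest of the other 4.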

How the results depend on the processing

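The count of 3 members called in WT fell to 1, Cd34, with slide as a block and in slide 1 alone, and leaving out 1 array gave 1 to 3, with 1 without WT control array 1, 2 or 4. The count of 2 in Lcn2-/- fell to 0 with slide as a block, where the share of all genes called also fell, from 12.2% to 1.74%, and leaving out 1 array gave 1 to 2, with 1 without Lcn2-/- control array 1 or 2 or Lcn2-/- CCl4 array 4. In controls the count of 0 became 1 with array weights. The cause was not tested. With the replicate block Stab2 in WT was -0.42 (adjusted p 0.0531), which lost the call, and no other member's call changed; the numbers do not pair WT control with WT CCl4 arrays (r = -0.0703 to 0.165). With array weights Vwf passed in both responses (adjusted p 0.0275 and 0.0244). Under 75th percentile scaling the median of all genes moved from -0.03 to -0.16 in WT and from -0.02 to -0.14 in Lcn2-/-, and Cd34, Lyve1 and Stab2 in WT, at 2.06, 1.46 and -0.56, kept their calls. Over all genes, 4094 passed in WT, 7054 with array weights, 1302 with slide as a block and 703 in slide 1 alone. Without WT control array 1 or 2 it was 2498 or 2581, which moved the share of all genes called from 16.8% to 10.3% or 10.6%. In Lcn2-/- 2968 passed, 6954 with array weights and 425 with slide as a block. Without Lcn2-/- control array 1 or 2 it was 1695 or 1683, or 6.96% or 6.91% of all genes in place of 12.2%. Between genotypes under CCl4 155 passed, 323 with array weights, 87 in slide 2 alone, 92 with the replicate block, 76 without WT CCl4 array 2 or Lcn2-/- CCl4 array 3, 97 and 99 without WT CCl4 array 4 and 5, 102 without Lcn2-/- CCl4 array 1, and 255 without both control arrays that stand apart. In controls 129 passed, 1270 with array weights and 216 with no filter. The interaction had 13, and 3 to 19 in these alternatives.

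Sign changed in 71 of the fits of single members, in none of which the gene passed the test. With the mean of all probes the interaction of Cd34 was 0.068. With array weights the interaction was 0.12 for Cd34, 0.16 for Gata4 and 0.038 for Vwf, the Gata4 response in Lcn2-/- was 0.055, Pecam1 between genotypes under CCl4 was 0.0053, and Stab1 between genotypes in controls was 0.0059. With slide as a block the Clec4g response in Lcn2-/- was -0.11, and Pecam1 between genotypes under CCl4 was 0.010, as in slide 2 alone. With 75th percentile scaling the Fcgr2b response in WT was -0.076, the interaction was 0.012 for Gata4 and 0.035 for Vwf, and between genotypes under CCl4 Pecam1 was 0.018 and Stab2 0.058. With the replicate block the Fcgr2b interaction was -0.076 and the Gata4 response in WT 0.045. Without both control arrays that stand apart, the interaction was -0.066 for Fcgr2b, 0.068 for Gata4 and 0.067 for Vwf, and Stab1 in controls was 0.019. With normexp Gata4 in controls was 0.015.

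Leaving out 1 array at a time gave the following ranges where the sign changed. The interaction ranged from -0.38 to 0.16 for Cd34, -0.11 to 0.22 for Fcgr2b, -0.16 to 0.12 for Gata4, -0.12 to 1.00 for Lyve1, -0.12 to 0.0062 for Stab1 and -0.096 to 0.14 for Vwf. The response in Lcn2-/- ranged from -0.071 to 0.26 for Fcgr2b, -0.21 to 0.014 for Gata4 and -0.18 to 0.046 for Stab2. The response in WT ranged from -0.059 to 0.12 for Fcgr2b and -0.23 to 0.045 for Gata4. Between genotypes in controls the range was -0.21 to 0.025 for Clec4g, -0.14 to 0.095 for Gata4, -0.81 to 0.30 for Lyve1 and -0.068 to 0.030 for Stab1. Between control arrays of the same number, Lcn2-/- read lower than WT in 3 of 3 pairs for 6 members (Stab2, Lyve1, Clec4g, Fcgr2b, Vwf and Plvap), as did 23.6% of all genes, with Lyve1 at -0.30, -0.27 and -0.55 and Clec4g at -0.19, -0.10 and -0.13. Between genotypes under CCl4 it was -0.17 to 0.10 for Gata4, -0.072 to 0.086 for Pecam1 and -0.14 to 0.081 for Stab2.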
